A study of Mus musculus with 16 samples.

Results

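The 9 genes described here regulate or mark the basal cells and neuronal progenitors of the olfactory epithelium. They are Neurog1, Neurod1, Kit, Sox2, Hes6 and Lgr5 for globose basal cells and Trp63, Krt5 and Krt14 for horizontal basal cells, chosen by gene symbol. Of these, 8 had 1 probe set each among the 19572 probe sets with a gene symbol, and Neurod1 was matched to 0 by its symbol and is not analysed here. The cells were sorted from the olfactory mucosa of S100a5-tauGFP mice and read on 16 Clariom S arrays. In these mice the GFP reporter is driven from S100a5, a gene that olfactory sensory neurons express with activity. All groups carry the reporter, and the labels name no other allele and no strain. The 24 mice were of both sexes and 7 to 12 weeks old. They stayed singly in chambers for 40 h under an air flow of 3.1 L/min and, from 26 h on, met 10 s pulses of citrus accord (a citrus odorant, at 100%) or of filtered air (vehicle) every 20 min. Each array holds cells pooled from 3 mice, and there are 4 groups of n = 4 arrays, namely GFP-positive and GFP-negative cells of citrus mice, and the same 2 gates of vehicle mice.

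The olfactory epithelium replaces its sensory neurons throughout life from basal cells. Horizontal basal cells lie on the basal lamina, are mostly quiescent, and are known by the transcription factor Trp63 and the keratins Krt5 and Krt14. Globose basal cells above them divide and pass from a Sox2-positive multipotent state through Kit-positive progenitors to Neurog1- and Neurod1-positive neuronal precursors, whose daughters mature into neurons that express Omp. The GFP-negative gate takes every captured cell without reporter signal, neuron or not.

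Values are log2 expression as deposited, and differences are on that log2 scale. On each array 5222 negative-control probes gave a background. Its median lay at 4.84 to 5.37 and its 95th percentile at 8.75 to 9.71, depending on the array. Of the 8 genes 0 exceeded that 95th percentile on any array, so no fold change of mRNA is given for them and each difference is one of array signal. S100a5 averaged 17.43 in citrus GFP-positive and 15.55 in citrus GFP-negative cells, and in vehicle 16.86 in GFP-positive cells and 14.94 in GFP-negative cells, the direction that the gate sets. Omp, the olfactory marker protein of mature neurons, averaged between 19.10 and 19.37 in all 4 groups.

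The sequences upstream of the start site are shown for Kit, Sox2 and Neurog1, which were lower in GFP-positive cells, and for Hes6, which was near the threshold. Each is the 250 bases before the start, written 5′ to 3′ on the strand of the gene, from RefSeq on GRCm38.p6. Capitals mark E-boxes (CANNTG, bound by proneural factors) and N-boxes (CACNAG, bound by Hes repressors), searched on both strands.
Kit, chr5:75574737-75574986, plus strand: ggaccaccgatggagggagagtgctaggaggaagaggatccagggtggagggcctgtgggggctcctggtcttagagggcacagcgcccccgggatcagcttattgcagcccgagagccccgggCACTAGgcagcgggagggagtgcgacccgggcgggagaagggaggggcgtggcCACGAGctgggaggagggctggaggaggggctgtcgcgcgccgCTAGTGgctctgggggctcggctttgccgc
Sox2, chr3:34649745-34649994, plus strand: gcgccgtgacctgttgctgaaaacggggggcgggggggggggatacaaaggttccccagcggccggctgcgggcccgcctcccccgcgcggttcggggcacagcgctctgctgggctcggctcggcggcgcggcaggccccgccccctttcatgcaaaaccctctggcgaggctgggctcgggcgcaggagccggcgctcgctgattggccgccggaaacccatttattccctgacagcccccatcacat
Neurog1, chr13:56252181-56252430, minus strand: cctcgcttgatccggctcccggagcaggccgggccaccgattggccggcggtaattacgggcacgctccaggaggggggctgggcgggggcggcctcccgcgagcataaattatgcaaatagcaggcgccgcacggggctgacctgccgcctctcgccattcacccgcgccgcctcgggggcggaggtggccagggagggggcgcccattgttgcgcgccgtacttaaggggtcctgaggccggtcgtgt
Hes6, chr1:91414039-91414288, minus strand: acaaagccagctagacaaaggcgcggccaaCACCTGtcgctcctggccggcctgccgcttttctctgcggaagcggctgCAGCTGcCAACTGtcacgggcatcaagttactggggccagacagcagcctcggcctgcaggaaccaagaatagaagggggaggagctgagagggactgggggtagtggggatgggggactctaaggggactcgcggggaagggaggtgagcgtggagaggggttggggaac
The Hes6 window held 3 E-boxes, 1 of them of the form CAGCTG, and the Kit window held 0 E-boxes and 3 N-boxes. Neither motif was found in the windows of Sox2 and Neurog1, which says only that these letters are not in these stretches. Among 32851 windows of the same length, 66.2% held CANNTG and 36.7% held CACNAG. These windows had a median GC content of 52.4%, whereas that of the 4 printed ones was 70.8% for Kit, 72.0% for Sox2, 71.2% for Neurog1 and 63.6% for Hes6. Krt5 had 2 E-boxes and Krt14 had 1.

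The first comparison asked where the 8 genes lie between reporter-positive and reporter-negative cells. In both stimuli Kit, Sox2 and Neurog1 were lower in GFP-positive cells (limma, adjusted p below), and Hes6, Lgr5, Trp63, Krt5 and Krt14 did not pass. Thus 3 of 8 were called lower and 0 higher in citrus and again in vehicle. Over all probe sets 10.8% were called lower in citrus and 9.97% in vehicle (18.2% and 19% in either direction), and 7.44% were called higher in citrus and 9.05% in vehicle. The median difference of the 8 genes was −0.55 in citrus and −0.32 in vehicle, against 0.13 and 0.11 over all probe sets. In such bulk samples, fewer cells of a type and less RNA per cell cannot be told apart.

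**Figure D1:**
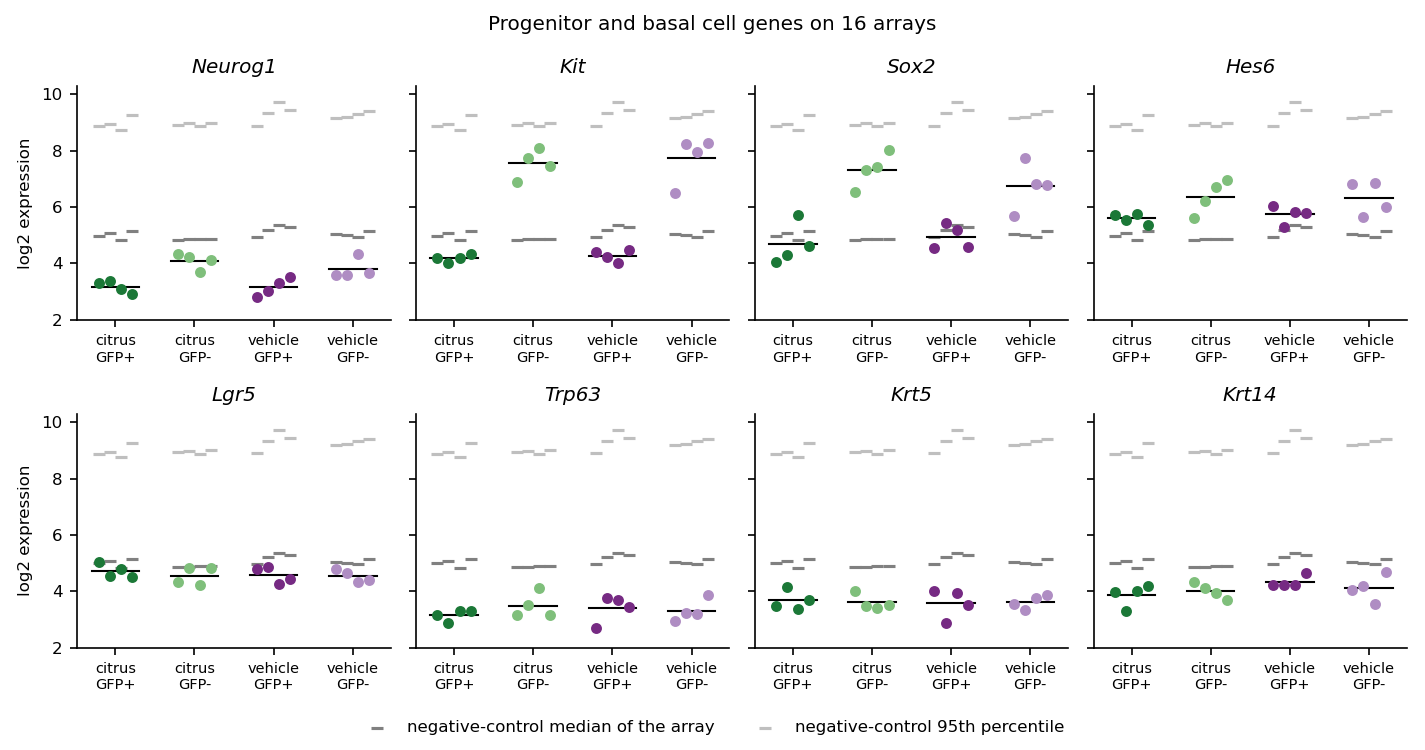
Log2 expression of the 8 genes on each array (points, in replicate order), with the group mean (black line) and, for each array, the negative-control median and 95th percentile (grey ticks). Kit and Sox2 stand above the negative-control median on all GFP-negative arrays, and Sox2 also on 1 GFP-positive array of each stimulus. Hes6 stands above it on all arrays and Lgr5 on 1 array. Neurog1, Trp63, Krt5 and Krt14 lie below it on every array.

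Kit, the receptor tyrosine kinase of committed progenitors, differed most. It read 4.19, 4.01, 4.18 and 4.35 in citrus GFP-positive and 6.91, 7.74, 8.11 and 7.47 in citrus GFP-negative cells. In vehicle it read 4.39, 4.23, 4.02 and 4.48 in GFP-positive cells and 6.51, 8.23, 7.95 and 8.26 in GFP-negative cells. The gates did not overlap in either stimulus, and every GFP-positive value lay below the negative-control median of its array. The share of all probe sets without overlap was not counted, for Kit or for the genes below. By limma, 6024 of 19572 probe sets in citrus and 6121 in vehicle had an unadjusted p under 0.05 between the gates. The difference was −3.38 ± 0.32 (SE) in citrus and −3.46 ± 0.32 in vehicle, with limma adjusted p = 3.2e-07 in both. On GFP-negative arrays Kit lay above 76.5% to 92.7% of the negative-control probes, and on GFP-positive arrays above 21.5% to 36.3%. Its gate difference had its sign in all 8 pools and was between −3.99 and −2.12, the smallest in vehicle replicate 1. Under citrus its mean was 4.18 ± 0.14 (SD, n = 4) for GFP-positive and 7.56 ± 0.51 for GFP-negative cells, and under vehicle it was 4.28 ± 0.20 for GFP-positive and 7.74 ± 0.83 for GFP-negative cells. Both GFP-negative groups thus ranked above both GFP-positive groups, and within a gate the stimuli did not differ beyond their spread.

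Sox2, a transcription factor of globose basal cells that sustentacular cells also express, followed. Its values were 4.06, 4.32, 5.72 and 4.63 in citrus GFP-positive and 6.54, 7.31, 7.41 and 8.03 in citrus GFP-negative cells. In vehicle they were 4.56, 5.43, 5.17 and 4.57 in GFP-positive cells and 5.69, 7.73, 6.83 and 6.77 in GFP-negative cells. Again the gates did not overlap, though the highest vehicle GFP-positive array came close to the lowest GFP-negative one. Sox2 exceeded the negative-control median on all GFP-negative arrays and on 1 GFP-positive array of each stimulus. The difference was −2.64 ± 0.41 in citrus (limma adjusted p = 0.00012) and −1.82 ± 0.41 in vehicle (adjusted p = 0.0041). Within pools it lay between −3.40 and −1.69 in citrus and between −2.30 and −1.13 in vehicle. The mean of Sox2 under citrus was 4.68 ± 0.73 (SD) for GFP-positive and 7.32 ± 0.61 for GFP-negative cells. Under vehicle it was 4.93 ± 0.44 for GFP-positive and 6.76 ± 0.84 for GFP-negative cells, in the same order of gates. The lowest GFP-negative value in each stimulus was that of replicate 1, for Sox2 as for Kit.

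Neurog1, the proneural factor of immediate neuronal precursors, was lower by a smaller amount and within background. It read 3.29, 3.36, 3.09 and 2.93 in citrus GFP-positive and 4.35, 4.21, 3.69 and 4.13 in citrus GFP-negative cells. In vehicle it read 2.80, 3.03, 3.29 and 3.51 in GFP-positive cells and 3.59, 3.57, 4.33 and 3.66 in GFP-negative cells. The gates did not overlap, but all 16 values lay below the negative-control median. In vehicle the highest GFP-positive array (3.51) came close to the lowest GFP-negative one (3.57). The difference was −0.93 ± 0.21 in citrus (limma adjusted p = 0.0031) and −0.63 ± 0.21 in vehicle (adjusted p = 0.040). The citrus call held under all 16 alternatives that gave a value, with differences between −1.26 and −0.60. Several of these changed only the error or the adjustment and left the difference at −0.93. The vehicle call was lost under 7 of 16, with adjusted p of 0.104, 0.0976 and 0.144 without vehicle replicates 1, 2 and 3, and 0.0535 and 0.0547 without citrus replicates 2 and 4. After median centring of the arrays it was −0.35 with adjusted p = 0.17, and in a fit of the vehicle arrays alone adjusted p was 0.081.

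Hes6, a Hes family member that promotes neuronal differentiation, was near the threshold. It read 5.73, 5.53, 5.76 and 5.36 in citrus GFP-positive and 5.60, 6.23, 6.71 and 6.95 in citrus GFP-negative cells. In vehicle it read 6.03, 5.31, 5.81 and 5.81 in GFP-positive cells and 6.82, 5.66, 6.86 and 5.99 in GFP-negative cells. The gates overlapped in both stimuli. The difference was −0.77 ± 0.29 in citrus (limma adjusted p = 0.079) and −0.59 ± 0.29 in vehicle (adjusted p = 0.18). With the pool of mice as a block the citrus difference passed (adjusted p = 0.046), and without citrus replicate 1, in which Hes6 was higher in the GFP-positive cells by 0.13, it was −1.08 with adjusted p = 0.023. Adjusted p was 0.033 when arrays were weighted and 0.0105 when mature neuron markers set the scale. It did not pass under the other 12 of 16 alternatives, with adjusted p up to 0.383. The difference was −0.50 (adjusted p = 0.38) without citrus replicate 4, −0.45 (0.17) after median centring and −0.46 (0.29) after quantile normalization.

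**Figure D2:**
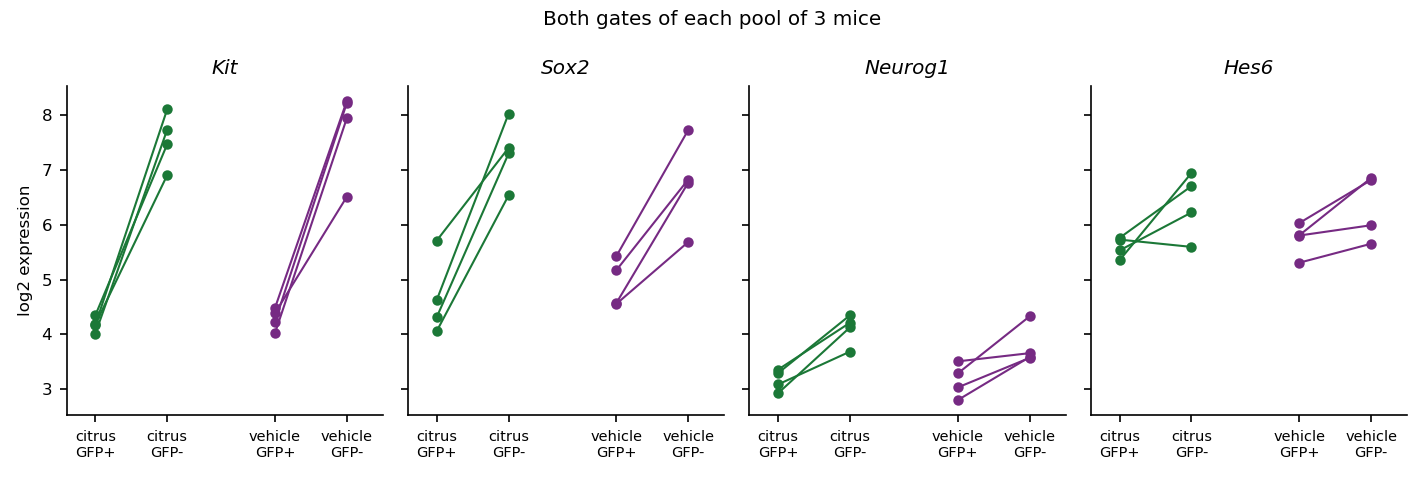
Log2 expression of Kit, Sox2, Neurog1 and Hes6 in the GFP-positive and GFP-negative cells of each pool, citrus left and vehicle right, with 1 line per pool of 3 mice. Every line of Kit, Sox2 and Neurog1 runs upward to the GFP-negative cells, and 7 of 8 lines of Hes6 do.

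Lgr5, a receptor for R-spondins that marks cycling stem cells in several epithelia, ranged from 4.26 to 5.05 on GFP-positive arrays and from 4.23 to 4.83 on GFP-negative arrays. The gates overlapped throughout. Its difference was 0.17 ± 0.19 in citrus (95% interval −0.23 to 0.57) and 0.035 ± 0.19 in vehicle (−0.37 to 0.44). After median centring of the arrays the citrus difference was 0.49 with limma adjusted p = 0.038, and with mature neuron markers as the scale it was −0.16.

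The horizontal basal cell genes gave no signal above the negative-control median on any of the 16 arrays. Trp63, the p53 family factor that maintains the reserve state, ranged from 2.71 to 3.76 on GFP-positive and from 2.94 to 4.11 on GFP-negative arrays. Krt5, the basal type II keratin, ranged from 2.86 to 4.16 on GFP-positive and from 3.33 to 4.02 on GFP-negative arrays. Krt14, its type I partner, ranged from 3.28 to 4.64 on GFP-positive and from 3.56 to 4.69 on GFP-negative arrays. These ranges overlap almost wholly. Their differences lay between −0.33 and 0.07 in citrus and between −0.05 and 0.21 in vehicle, with limma adjusted p of 0.41 or more. At an unadjusted p under 0.05, 0 of the 3 passed in either stimulus, against 6024 of all 19572 probe sets in citrus and 6121 in vehicle. The 95% interval of Trp63 in citrus was −0.88 to 0.22. The presence of horizontal basal cells in the sorted samples was not detectable from these probe sets.

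**Figure D3:**
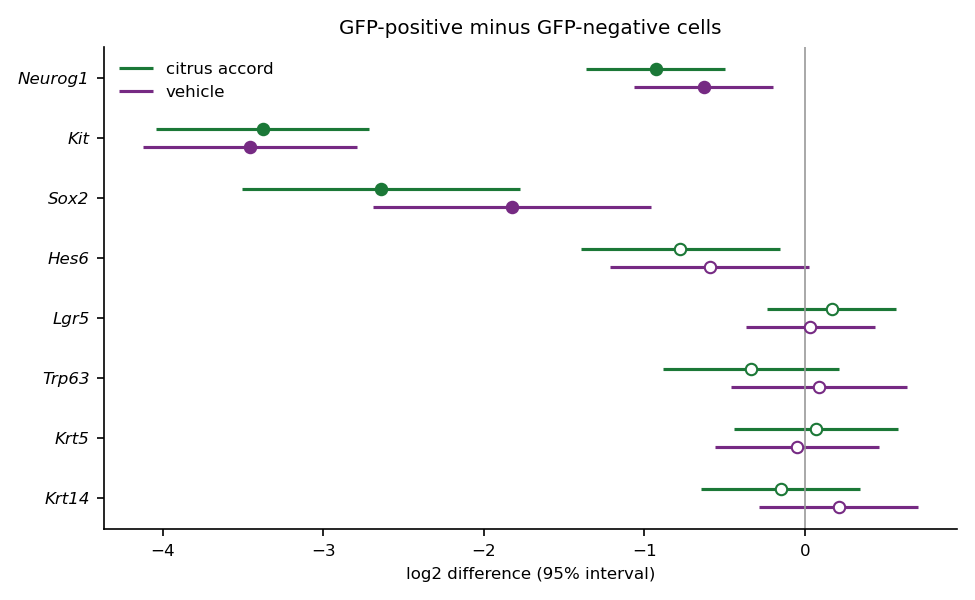
GFP-positive minus GFP-negative difference in log2 expression with its 95% interval, for citrus (upper of each pair) and vehicle (lower). Filled points passed an adjusted p of 0.05 and open points did not. Kit, Sox2 and Neurog1 lie below 0 in both stimuli, and the horizontal basal genes lie around 0.

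Other genes of the same programmes were counted from lists of known genes. Of 10 genes of dividing progenitors, 10 were lower in GFP-positive cells in citrus and 9 in vehicle, with medians of −1.68 and −1.58. These genes do not tell dividing progenitors from other dividing cells. The largest vehicle differences were those of the proliferation antigen Mki67 (−5.35 ± 0.47), the replication licensing factor Mcm2 (−2.12 ± 0.30) and cyclin A2, Ccna2 (−1.94 ± 0.40), with 0.0018 as the highest adjusted p. Of 25 neurogenic and Notch genes, 6 were lower and 0 higher in either stimulus, and the medians were 0.02 in citrus and −0.17 in vehicle. Sox11, a factor of newborn neurons, was at −2.81 ± 0.30 in vehicle, Lfng, a glycosyltransferase that modifies Notch, at −2.46 ± 0.32, and the receptor Notch2 at −1.97 ± 0.26, with 2.03e-05 as the highest adjusted p. Notch2 is also in the sustentacular list.

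Of 15 further genes of basal epithelial cells, 2 were lower and 0 higher in each stimulus, with medians of −0.10 in citrus and −0.25 in vehicle. The laminin receptor subunit Itga6 was at −1.34 ± 0.33 in vehicle (adjusted p = 0.0077) and desmoplakin, Dsp, at −0.80 ± 0.27 (adjusted p = 0.049), while the laminin chain Lama3 was at −0.50 ± 0.33 (adjusted p = 0.33). The keratins Krt15 and Krt17, the collagen Col17a1 and the integrin Itgb4 lay below the negative-control median on every array, as Krt5 and Krt14 did. Of 10 Wnt and Lgr genes, 2 were lower and 0 higher in citrus, and 2 lower and 2 higher in vehicle. In vehicle the gland factor Sox9 was at −4.44 ± 0.40 (adjusted p = 3.05e-07), the Wnt effector Tcf7l2 at −2.23 ± 0.45 (0.0017) and the growth factor receptor inhibitor Lrig1 at 0.92 ± 0.23 (0.0078). Of 9 genes of Kit signalling, 6 were lower in citrus and 5 in vehicle, and 0 were higher. They were led in vehicle by the phosphatase Ptpn6, which blood cells express strongly (−2.56 ± 0.43, adjusted p = 0.00027), the kinase subunit Pik3r1 (−1.63 ± 0.24, 8.8e-05) and the ubiquitin ligase Cbl (−0.91 ± 0.20, 0.0030). In the same arrays all 14 leukocyte markers were lower in GFP-positive cells. Their mean level was 5.62 to 6.02 on citrus GFP-positive and 12.06 to 13.78 on citrus GFP-negative arrays, and 5.50 to 6.40 on vehicle GFP-positive and 12.71 to 13.63 on vehicle GFP-negative arrays. The part of leukocytes in the counts of Kit signalling and of dividing progenitor genes was not tested.

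Kit is also a mast cell receptor, and Sox2 a sustentacular cell factor, so the markers of these cells were read beside them. Of the 10 mast cell genes, Kit included, 4 were lower in GFP-positive cells in each stimulus. Besides Kit they were histidine decarboxylase, Hdc (−4.40 ± 0.33 in vehicle), the protease Cpa3 (−3.11 ± 0.30) and the factor Gata2 (−1.04 ± 0.20), with 0.0010 as the highest adjusted p. The mast cell proteases Cma1, Mcpt4, Tpsb2 and Tpsab1 and the IgE receptor chains Fcer1a and Ms4a2 lay below the negative-control median on all 16 arrays. Without Kit, the list averaged 3.68 to 3.97 on citrus GFP-positive and 4.74 to 5.07 on citrus GFP-negative arrays, and 3.79 to 4.07 on vehicle GFP-positive and 4.67 to 5.24 on vehicle GFP-negative arrays. Microvillous cell genes were lower in 10 of 10 in both stimuli, led in vehicle by the cation channel Trpm5 (−4.37 ± 0.36), Sh2d7 (−3.88 ± 0.36) and the ionocyte factor Foxi1 (−3.83 ± 0.75), with 0.0012 as the highest adjusted p. Of 11 sustentacular genes, Sox2 included, 5 were lower in citrus and 4 in vehicle. The 4 in vehicle were Sox2, Notch2, Krt18 and Krt8, and the other 7, among them Cyp2g1, Cyp1a2 and Ermn, did not pass. The keratins Krt18 (−3.62 ± 0.57) and Krt8 (−2.78 ± 0.41) passed in vehicle with adjusted p = 0.00016 and 7.6e-05, and the sulfotransferase Sult1c1 was at −2.33 ± 0.85 (adjusted p = 0.064). Krt18 is in the sustentacular, the microvillous and the gland list.

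Among the GFP-negative arrays the levels of Sox2 and Kit were set against those of the marker lists. Without Sox2, the sustentacular genes averaged 8.71, 9.77, 10.44 and 10.50 on citrus GFP-negative arrays. On vehicle GFP-negative arrays they averaged 7.12, 10.34, 10.11 and 9.68. Vehicle replicate 1, lowest in Sox2 (5.69), was also lowest in this list. Over the 8 arrays Pearson's r for Sox2 and the sustentacular genes was 0.906 (exact permutation p = 0.0018, 0.021 after Benjamini-Hochberg adjustment over 12 relations). Spearman's rho was 0.952 (exact permutation p = 0.0011, adjusted 0.014), with all p two-sided. Without the 2 arrays farthest from the median, replicate 1 of both stimuli, r was 0.737. By Pearson's r the cross relations were of similar size, but their rho was lower than that of Sox2 and the sustentacular genes. For Sox2 and the microvillous genes r was 0.840 (exact permutation p = 0.018, adjusted 0.078) and rho 0.833 (0.015, adjusted 0.092), and r was 0.392 without the same 2 arrays. For Kit and the sustentacular genes r was 0.839 (exact permutation p = 0.026, adjusted 0.078) and rho 0.381 (0.36, adjusted 0.67), and r was −0.248 without them. For Kit and the microvillous genes r was 0.843 (exact permutation p = 0.019, adjusted 0.078) and rho 0.619 (0.115, adjusted 0.46), and r was 0.225 without them. The r of Kit with the sustentacular and microvillous genes thus rests on replicate 1 of both stimuli. That of Sox2 with the microvillous genes was lower without these arrays, and its rho was not computed without them. Whether the relations differ from each other was not tested. For Kit and the mast cell list r was 0.213 (exact permutation p = 0.61, adjusted 0.67) and rho 0.167 (0.70, adjusted 0.77), with r at 0.471 without vehicle replicates 2 and 4. The relations set Kit and Sox2 against 6 marker lists and were chosen after the values had been seen. For the dividing progenitor genes r was 0.456 with Kit and 0.361 with Sox2, and for the leukocyte markers 0.392 and 0.423. For the immature neuron genes it was −0.254 and 0.224, and for Sox2 and the mast cell list −0.116. Exact permutation p of r was 0.24 or more for each of these (adjusted 0.57 or more). Without vehicle replicates 1 and 2, r for Kit and the dividing progenitor genes was 0.731. Within a stimulus, over 4 arrays and with no test, r for Sox2 and the sustentacular genes was 0.918 in citrus and 0.914 in vehicle. In the same way it was 0.633 in citrus and 0.997 in vehicle for Kit and the microvillous genes, and 0.649 in citrus and 0.0348 in vehicle for Kit and the mast cell list. The cross pairs gave 0.791 in citrus and 0.960 in vehicle for Kit and the sustentacular genes. For Sox2 and the microvillous genes r was 0.776 in citrus and 0.903 in vehicle. For Kit and the dividing progenitor genes it was 0.924 and 0.479, and for Sox2 and the mast cell list 0.982 and −0.457. The part of sustentacular, microvillous or mast cells in the gate differences was not tested.

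**Figure D4:**
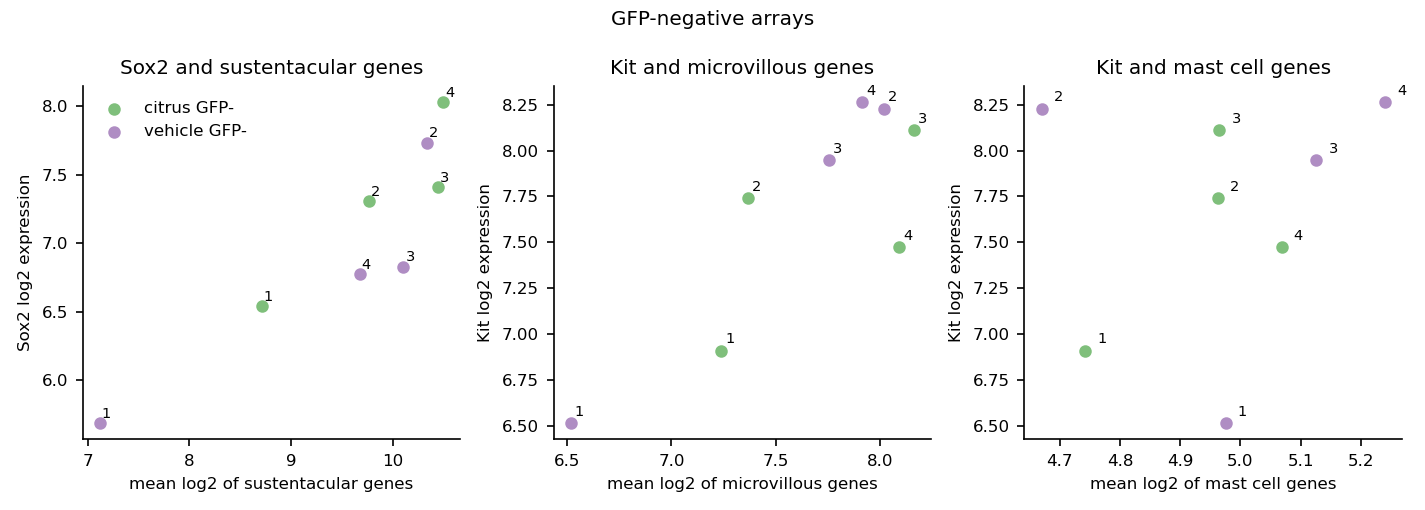
Log2 expression of Sox2 or Kit against the mean log2 level of a marker list (without that gene) on the 8 GFP-negative arrays, with points numbered by replicate. Pearson's r is 0.906 for Sox2 and the sustentacular genes, and 0.843 for Kit and the microvillous genes, where replicate 1 of both stimuli carries the relation.

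The genes whose profiles were most like those of the called genes were found by the root mean square difference of mean-centred log2 values over 16 arrays, as a description. For Kit these were Rdx, the membrane-cytoskeleton linker radixin (0.29 log2 units), the odorant receptor Olfr139 (0.35) and the tetraspanin Tspan1 (0.38). For Sox2 they were the transporter Abcc3 (0.38), the G protein regulator Rgs10 (0.40) and the fatty acid desaturase Fads2 (0.40). For Neurog1 they were the mitotic kinesin Kif18a (0.23), the ectonucleotidase Entpd3 (0.26) and Sft2d2 (0.26). Rdx averaged 5.12 in citrus GFP-positive and 9.02 in citrus GFP-negative cells, and in vehicle 5.68 in GFP-positive cells and 9.01 in GFP-negative cells. Abcc3 averaged 6.33 in citrus GFP-positive and 8.22 in citrus GFP-negative cells, and in vehicle 6.34 in GFP-positive cells and 7.85 in GFP-negative cells.

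The second comparison asked whether citrus accord altered these genes within a gate. By limma 0 of 8 passed in either gate, and at an unadjusted p under 0.05 also 0. Of all 19572 probe sets, 794 had an unadjusted p under 0.05 in the GFP-positive and 1151 in the GFP-negative gate. Over all probe sets 0.0204% were called in the GFP-positive gate, all of them higher, and 0.0153% in the GFP-negative gate (0.0102% higher and 0.00511% lower). In GFP-negative cells, Sox2 had the largest difference, 0.57 ± 0.41 (95% interval −0.30 to 1.43, adjusted p = 0.88), with overlapping values. Its size and rank rested on single replicates. Without vehicle replicate 1 it was 0.21 and that of Kit −0.59, without citrus replicate 4 it was 0.33, and without vehicle replicate 2 it was 0.89. Neurog1 was at 0.31 ± 0.21 (−0.12 to 0.74), Kit at −0.18 ± 0.32 (−0.85 to 0.49) and Hes6 at 0.04 ± 0.29 (−0.58 to 0.66). In GFP-positive cells, Krt14 had the largest difference, −0.46 ± 0.24 (−0.96 to 0.03, adjusted p = 0.999), between values that all lay within background, and −0.27 without citrus replicate 2. The medians over the 8 genes were −0.12 in the GFP-positive and 0.02 in the GFP-negative gate, against 0.01 and 0.01 over all probe sets. Of the 10 genes of dividing progenitors 0 passed in GFP-negative cells by limma, with 1 at an unadjusted p under 0.05 and a median of 0.23, and of the 25 neurogenic and Notch genes 0 passed, with 0 unadjusted.

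**Figure D5:**
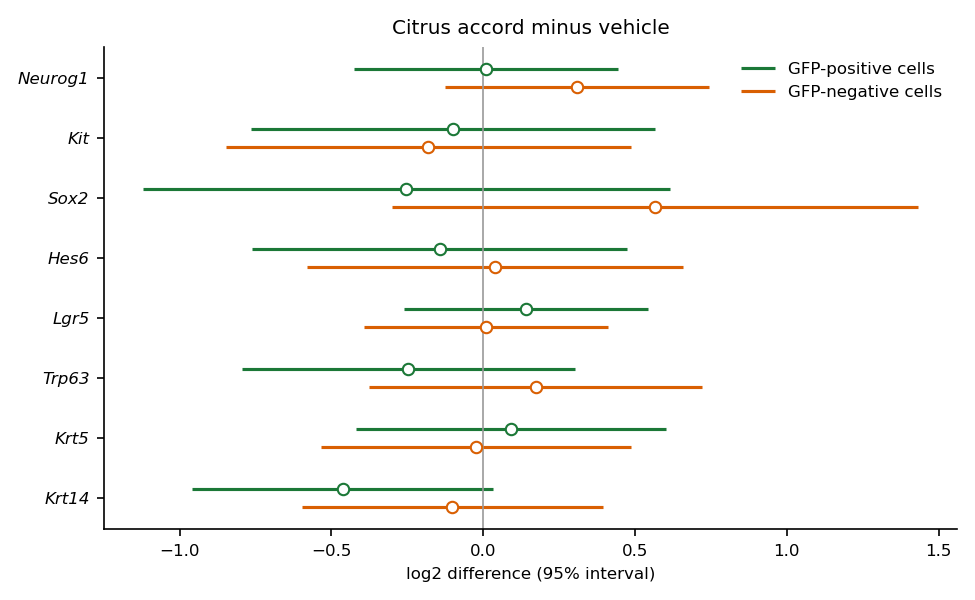
Citrus minus vehicle difference in log2 expression with its 95% interval, in GFP-positive (upper of each pair) and GFP-negative cells (lower). All points are open, none having passed an adjusted p of 0.05, and the widest intervals are those of Sox2.

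The third comparison set the gate difference in citrus against that in vehicle. By limma 0 of 8 genes passed, and 0% of all probe sets were called. At an unadjusted p under 0.05, 0 of the 8 passed, against 722 of all 19572 probe sets. Sox2 had the largest difference of differences, −0.82 ± 0.58 (95% interval −2.05 to 0.41), followed by Trp63 (−0.42 ± 0.37), Krt14 (−0.36 ± 0.33) and Neurog1 (−0.30 ± 0.29). For Kit it was 0.08 ± 0.45 (−0.86 to 1.02). Adjusted p was 0.999 for each of these. The gate differences of the 2 stimuli share no arrays. Their p-values, however, came from a common fit, in which the arrays of both stimuli gave each probe set a shared estimate of its spread. The calls in citrus and in vehicle are therefore not independent of each other.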

How the data were processed

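RNA of sorted cells was labelled from 50 to 100 ng of total RNA and hybridised to 16 arrays, per the labels' protocols. The deposited table gives log2 expression on 28846 probe sets, 6640 of them controls, as the authors made it. Per the submitters' processing notes it was made with Affymetrix Expression Console (version and genome build not given in the sources used here), and 1 label names gene-level SST-RMA. Its signal space transformation can stretch or compress the log2 scale. Values were used as deposited, and 0 columns belonged to other samples. Gene symbols came from the platform annotation (19572 probe sets with 1 symbol, 0 with several, 2634 unnamed here), and all 19572 matched a current gene table by Entrez identifier, which changed 0 symbols. Arrays give signal, not read depth, and 4 arrays per group limit the precision.

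Differences were fitted with limma 3.58.1 in R 4.3.3, 1 mean per group over all 16 arrays, empirical Bayes, two-sided, with Benjamini-Hochberg adjustment over all 19572 probe sets and a threshold of 0.05. Errors written as ± beside differences are standard errors. The test was tried on simulated data. The members and lists were chosen with earlier results of these data known. All members were named. Of each list up to 3 genes with the largest vehicle gate difference were named, and for each called member the 3 nearest profiles. Other list genes and the relations among GFP-negative arrays were named after their values were seen. Arrays of both gates with one number were taken as the same pool, since 24 mice make 8 pools of 3. Their deviations from group means correlated at 0.075 to 0.275. Alternatives were a replicate block, 3 scalings, a filter on dim probe sets, all probe sets, only the groups compared, another prior, array weights and each replicate left out. The block was the pool for the gates and the difference of gates. For citrus against vehicle within a gate it was the replicate number, which links arrays of different mice. Python 3.11.15 and matplotlib 3.10.9 made the figures.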

Additional observations from a re-analysis of the deposited data

Results flagged for a closer look

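Of 32 sets of 4 arrays (8 genes in 4 groups), 2 held a value set apart from the other 3 by Dixon's criterion, where chance gives about 1 in 20. Neurog1 was at 4.33 on vehicle GFP-negative replicate 3, where the other 3 arrays of the group gave 3.57 to 3.66. Krt14 was at 4.64 on vehicle GFP-positive replicate 4, against 4.22 to 4.24 on the others. Both values lie below the negative-control medians.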

How the results depend on the processing

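Kit and Sox2 were called lower in GFP-positive cells in both stimuli under all 16 alternatives that gave a value, Kit between −3.70 and −3.05 in citrus and between −3.90 and −3.18 in vehicle, Sox2 between −2.97 and −2.32 in citrus and between −2.07 and −1.54 in vehicle. Several alternatives left each gate difference as it was and changed only its error or adjustment. They were the replicate block, all probe sets, only the groups compared, the other prior and replicates of the other stimulus left out. The count of members called was 3 to 4 in citrus and 2 to 3 in vehicle with a replicate left out. The dim filter kept 6364 probe sets and 0 of the 8 genes, so it gave no value for them. Uncalled member values changed sign in 6 of 75 cases for the gate in citrus, 9 of 80 in vehicle, 8 of 128 for citrus in GFP-positive and 20 of 128 in GFP-negative cells, and 9 of 120 for the difference of gates, and 0 calls were gained in the last 3. Median centring of the arrays gave 10839 calls in citrus (84.2% higher, against 40.8%) and 8635 in vehicle (82.0% higher, against 47.6%), since it shifted the median gate difference by 0.33 and 0.28. Centring on mature neuron markers shifted it by −0.33 and −0.25 (14.2% and 18.4% of calls higher), and quantile normalization gave 54.1% higher in citrus. The filter gave 1564 calls in citrus, 2012 in vehicle and 2 for citrus in GFP-positive cells. These counts are out of 6364 probe sets, not 19572. With a replicate left out, the gate gave 2477 to 3672 calls in citrus and 2369 to 3675 in vehicle. It gave 2466 without vehicle replicate 2 and 2369 without vehicle replicate 4, and the cause was not tested. The difference of gates gave 1 call, against 0, with the replicate block, with mature neuron centring and with the trended prior, and 0 to 1 with a replicate left out (1 without citrus replicate 1). A fit of only the groups compared was not run for it, as all 4 are compared. Besides Hes6 in citrus, the replicate block changed no other member call.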

Other observations

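Neuronal genes next to the progenitor stage differed between the gates in the same arrays. Of 12 immature neuron genes, 6 were lower in GFP-positive cells in citrus and 7 in vehicle. The G protein subunit Gng8 was at −4.57 ± 0.18 in citrus and −4.04 ± 0.18 in vehicle (limma adjusted p = 1.41e-11 and 5.92e-11), and the bHLH factor Nhlh1 at −4.00 ± 0.36 and −3.82 ± 0.36 (2.44e-07 and 5.30e-07). The growth cone protein Dpysl3 was at −3.01 ± 0.17 and −3.71 ± 0.17. Of 15 mature neuron genes, 5 were higher in citrus and 3 in vehicle, led in vehicle by Rtp2 (0.75 ± 0.17), Ano2 (0.64 ± 0.13) and Cnga2 (0.51 ± 0.15).

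Gland genes were lower in 5 of 9 in citrus and 4 of 9 in vehicle. Their largest vehicle differences were those of Ltf, also a neutrophil protein (−7.82 ± 0.48), Sox9 and Krt18. Of 8 respiratory epithelium genes, 2 were higher and 1 lower in citrus, and 1 was higher in vehicle, the ciliary Tekt1 (1.04 ± 0.29, adjusted p = 0.019), beside Bpifa1 (−1.30 ± 0.53, 0.099) and Ccdc39 (0.53 ± 0.23, 0.13). Of 9 glia and stroma genes 0 passed in citrus by limma (2 at an unadjusted p under 0.05), and 1 was lower in vehicle, the glial factor Sox10 (−1.12 ± 0.29, 0.0096). The leukocyte list was led in vehicle by Lcn2 (−10.30 ± 0.54), Retnlg (−10.13 ± 0.48) and Ngp (−9.57 ± 0.42).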
